A study of Mus musculus with 5 samples.

Results

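Pf4, Ppbp, Itga2b, Itgb3, Gp1ba, Gp1bb, Gp5, Gp9 and Treml1 are genes of megakaryocytes and platelets, and they were followed by symbol through a table of raw read counts of the mouse mandible at embryonic day 10.5. The 9 genes are 9 of the 23441 rows of the table, and all 9 were found. Poly(A) RNA was sequenced in 5 libraries. The 3 control libraries came from embryos labelled Yapf/f, Tazf/f on the 129SvEv background. The 2 dCKO libraries carried those floxed alleles and Wnt1Cre, on a background labelled C57BL/6J x CBA/J; 129SvEv. Genotype and strain background therefore cannot be told apart in any comparison here. Wnt1Cre deletes in the neural crest, the source of most arch mesenchyme, whereas blood cells and their megakaryocytes derive from mesoderm. The labels do not say how many embryos went into a library, nor that libraries came from separate embryos, so the p-values measure the spread between these libraries, which may in part be technical.

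Megakaryocytes are large blood cells that shed platelets, the cell fragments that plug damaged vessels. In the mouse embryo, megakaryocyte precursors arise with the first red cells and macrophages in the yolk sac and reach the embryo through the circulation. A platelet holds on to injured vessel wall through the GPIb-IX-V complex, which binds von Willebrand factor, and clumps with other platelets through integrin alphaIIb-beta3, which binds fibrinogen. Its alpha granules release chemokines on activation. Some of these genes are not restricted to the lineage. Itga2b, also called CD41, marks early blood progenitors of the embryo, and Itgb3 pairs with a second alpha chain in endothelial and other cells.

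The genes of the GPIb-IX-V complex lie on 3 chromosomes. All 4 stood higher in both dCKO libraries than in any control, but Gp1bb did not enter the test and its values are uncertain. The sequences before their start sites are shown because 4 separate genes with this pattern encode the parts of a single receptor. Those of Pf4 and Itga2b are added as 1 example each of the chemokine and integrin genes. Each is the 250 bases before the RefSeq start site on GRCm38.p6, 5′ to 3′ on the gene's strand, with matches to 2 motif families in capitals. The GATA family was searched as the word AGATAA, the word AGATAG, the word TGATAA or the word TGATAG, and the ETS family as the word AGGAAG or the word CGGAAG, on both strands, so that a match on the other strand reads as the reverse complement. GATA and ETS factors are textbook regulators of megakaryocyte genes.
Gp1ba: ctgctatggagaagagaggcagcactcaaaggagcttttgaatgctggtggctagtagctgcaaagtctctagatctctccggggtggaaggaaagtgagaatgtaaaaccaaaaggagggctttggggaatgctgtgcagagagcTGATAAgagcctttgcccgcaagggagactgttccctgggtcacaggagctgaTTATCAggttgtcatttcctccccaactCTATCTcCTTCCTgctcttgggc
Gp1bb: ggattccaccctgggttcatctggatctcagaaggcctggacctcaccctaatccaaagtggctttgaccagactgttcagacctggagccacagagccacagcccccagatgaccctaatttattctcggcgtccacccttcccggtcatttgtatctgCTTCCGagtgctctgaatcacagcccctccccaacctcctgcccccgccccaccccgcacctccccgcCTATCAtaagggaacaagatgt
Gp5: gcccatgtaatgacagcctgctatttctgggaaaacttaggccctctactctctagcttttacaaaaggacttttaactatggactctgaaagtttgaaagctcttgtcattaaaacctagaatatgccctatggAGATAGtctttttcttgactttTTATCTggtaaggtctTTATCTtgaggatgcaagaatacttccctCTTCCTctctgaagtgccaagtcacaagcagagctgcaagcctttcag
Gp9: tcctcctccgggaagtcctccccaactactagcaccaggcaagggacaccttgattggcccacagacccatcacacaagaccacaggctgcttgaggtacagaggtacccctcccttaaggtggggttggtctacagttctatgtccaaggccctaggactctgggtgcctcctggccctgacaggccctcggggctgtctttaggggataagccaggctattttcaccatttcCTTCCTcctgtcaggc
Pf4: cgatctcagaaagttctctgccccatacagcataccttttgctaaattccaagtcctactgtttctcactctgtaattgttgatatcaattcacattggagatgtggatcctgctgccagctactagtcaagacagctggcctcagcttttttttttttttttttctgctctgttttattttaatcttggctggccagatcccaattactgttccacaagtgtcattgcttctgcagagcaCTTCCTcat
Itga2b: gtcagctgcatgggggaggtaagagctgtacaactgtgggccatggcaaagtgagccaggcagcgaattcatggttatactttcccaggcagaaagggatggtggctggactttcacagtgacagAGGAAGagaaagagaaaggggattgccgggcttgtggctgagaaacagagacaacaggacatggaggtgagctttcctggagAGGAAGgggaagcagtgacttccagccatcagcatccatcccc
The Gp1ba stretch is chr11:70638872-70639121 on the plus strand, that of Gp1bb chr16:18622404-18622653 on the minus strand, that of Gp5 chr16:30310782-30311031 on the minus strand and that of Gp9 chr6:87777820-87778069 on the plus strand. The Pf4 stretch is chr5:90772185-90772434 on the plus strand and that of Itga2b chr11:102469884-102470133 on the minus strand.

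RefSeq sequences were matched for 8 of the 9 genes, Itgb3 being the one not matched. A GATA match was found in 3 of these 8 stretches, against 26.5% of all 32851 stretches of the same length, and an ETS match in 6 of 8, against 39.2%. Gp1ba, Gp1bb and Gp5 held both, as did 9.21% of all stretches. In Gp1ba a GATA match began 23 bases and an ETS match 16 bases before the start site, with no overlap. Such a match describes letters and shows neither binding nor use.

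**Figure D1:**
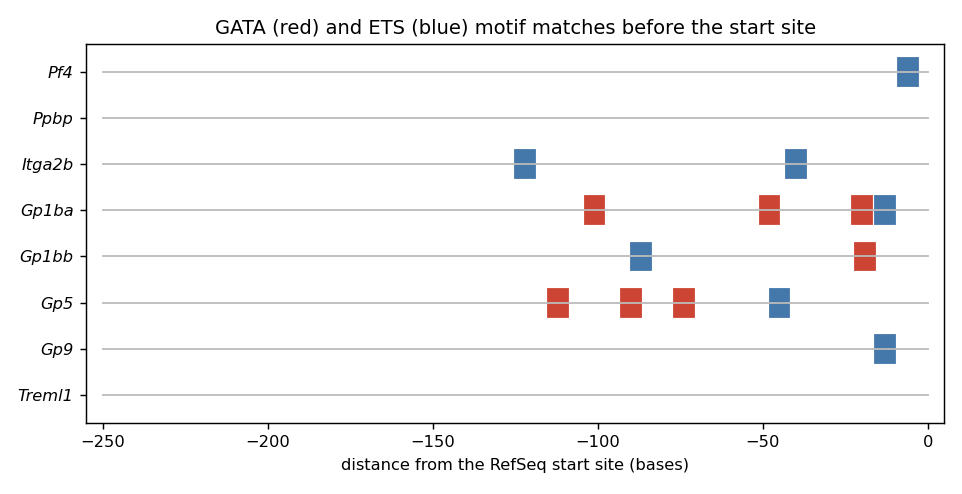
Matches to the GATA (red) and ETS (blue) motifs in the 250 bases before the start site of the 8 genes with a RefSeq sequence, by distance from the start site in bases. Gp1ba and Gp5 each hold 3 GATA matches and 1 ETS match, while Ppbp and Treml1 hold none of either.

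Before the members, the libraries were checked. Total counts ran from 6491137 to 7439419 in the controls and were 11346480 and 13298973 in dCKO replicates 1 and 2. Yap1 and Wwtr1 (Taz), the targeted genes, were lower in both dCKO libraries than in any control, by 1.33 and 1.31 on the log2 scale (SE 0.16 and 0.20, edgeR adjusted p = 1.31e-05 and 1.56e-04). All 8 mesenchyme markers of the lower jaw (Prrx1, Twist1, Dlx5, Dlx6, Hand2, Msx1, Alx4 and Pdgfra) were present in every library, with sums of 1993 to 2126 CPM in the controls and of 1806 and 1870 CPM, below every control, in dCKO tissue. Of the 8, Dlx6, Dlx5 and Prrx1 fell and Alx4 rose, with log2 fold changes of −0.76, −0.44, −0.42 and 0.48 (edgeR adjusted p = 9.28e-04, 0.0353, 0.0442 and 0.0189). Only the call of Dlx6 held with each single library left out. CPM here are counts per 1000000 counts of the TMM-scaled library size, and levels are given in this unit unless said otherwise.

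Pf4 and Ppbp encode the CXC chemokines CXCL4 (platelet factor 4) and CXCL7, both stored in platelet alpha granules. They are neighbours on chromosome 5, with 2371 bases between them on GRCm38. Pf4 had 33, 61 and 16 reads in the controls, in the order of replicates 1 to 3, against 427 and 868 in dCKO replicates 1 and 2, an order kept below. Scaled, these were 4.34, 8.25 and 2.44 CPM against 39.5 and 66.5 CPM. Both dCKO libraries stood above every control, dCKO replicate 2 highest and control replicate 2 highest among the controls. Pf4 rose from 5.01 ± 2.96 (SD, n = 3) to 53.0 ± 19.1 CPM (SD, n = 2), a rise of 3.38 on the log2 scale (edgeR adjusted p = 9.64e-08, SE 0.29).

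Ppbp followed at a lower level. It had 5, 27 and 5 reads in the controls and 109 and 306 in dCKO tissue, or 0.657, 3.65 and 0.764 CPM against 10.1 and 23.4 CPM. The groups did not overlap, although control replicate 2 alone held 27 of the reads of the control group. Ppbp rose from 1.69 ± 1.70 (SD, n = 3) to 16.8 ± 9.45 CPM (SD, n = 2), a rise of 3.29 on the log2 scale (edgeR adjusted p = 6.91e-05, SE 0.46). Its log2 fold change was 4.55 without control replicate 2 (edgeR adjusted p = 8.42e-10) and 2.55 without dCKO replicate 2 (edgeR adjusted p = 0.0119). Per 100 reads of Pf4 there were 15.2, 44.3 and 31.2 reads of Ppbp in the controls and 25.5 and 35.3 in dCKO tissue, so the proportion of the pair lay in the same range in both groups.

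Itga2b and Itgb3 encode the 2 chains of the platelet fibrinogen receptor. Itga2b, the alphaIIb chain, had 21, 19 and 28 reads in the controls and 375 and 786 in dCKO tissue. Its levels were 2.76, 2.57 and 4.28 CPM against 34.7 and 60.2 CPM, so the lowest dCKO library was many times above the highest control. Itga2b rose from 3.20 ± 0.94 (SD, n = 3) to 47.4 ± 18.1 CPM (SD, n = 2), a rise of 3.90 on the log2 scale (edgeR adjusted p = 1.83e-09, SE 0.26), the smallest p among the 9.

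Itgb3, the beta3 chain, had the most control reads of the 9 genes, with 40, 53 and 46, and 393 and 988 in dCKO tissue. These were 5.26, 7.17 and 7.03 CPM against 36.3 and 75.7 CPM, and the controls lay close together while the dCKO libraries did not. It rose from 6.48 ± 1.07 (SD, n = 3) to 56.0 ± 27.8 CPM (SD, n = 2), a rise of 3.12 on the log2 scale (edgeR adjusted p = 3.85e-08, SE 0.26), and stood at 2.49 without dCKO replicate 2 (edgeR adjusted p = 8.26e-07). Per 100 reads of Itgb3 there were 52.5, 35.8 and 60.9 reads of Itga2b in the controls and 95.4 and 79.6 in dCKO tissue. The alpha chain thus made up more of the pair in both dCKO libraries than in any control (exact two-sided permutation p = 0.1, the smallest that 3 against 2 libraries allow).

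The GPIb-IX-V genes were far less abundant. Gp1ba, whose product holds the von Willebrand factor site, had 1, 7 and 5 reads in the controls and 29 and 126 in dCKO tissue, or 0.131, 0.947 and 0.764 CPM against 2.68 and 9.65 CPM. The groups were apart, and dCKO replicate 2 held most of the reads. The log2 fold change was 3.33 (edgeR adjusted p = 0.00111, SE 0.60). The call of Gp1ba was lost when dCKO replicate 2 was left out, at 2.12 (edgeR adjusted p = 0.188), and stood at 3.97 without dCKO replicate 1.

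Gp1bb, the beta chain linked to it by a disulfide bond, was the least abundant of the 9 in dCKO tissue. It had 5, 3 and 2 reads in the controls and 10 and 60 in dCKO tissue, or 0.657, 0.406 and 0.306 CPM against 0.924 and 4.59 CPM. The 2 groups came close to each other, since dCKO replicate 1 lay just above control replicate 1. It did not pass the filter on low counts with all 5 libraries. It passed with dCKO replicate 1 left out, where it was called higher, and without the filter its rise was 2.57 on the log2 scale (edgeR adjusted p = 8.07e-04, SE 0.61). In GENCODE M21 (GRCm38), 91.1% of its exonic bases are also exonic in Sept5, a septin gene on the same strand. The sources used here do not give how the authors' counting treated reads shared by both, and the Gp1bb values are uncertain.

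Gp5, which encodes the subunit that thrombin cleaves from platelets, had 9, 5 and 1 reads in the controls and 49 and 106 in dCKO tissue, or 1.18, 0.676 and 0.153 CPM against 4.53 and 8.12 CPM. Its log2 fold change was 3.18 (edgeR adjusted p = 2.91e-04, SE 0.50) and 3.85 without control replicate 1, the highest control. Gp9, the small subunit needed to bring the complex to the surface, had 2, 2 and 4 reads in the controls and 43 and 97 in dCKO tissue, or 0.263, 0.271 and 0.611 CPM against 3.97 and 7.43 CPM. Its log2 fold change was 3.90 (edgeR adjusted p = 5.41e-05, SE 0.53), as large as that of Itga2b though measured on few control reads. Summed over the 4 genes, the complex measured 2.23, 2.30 and 1.83 CPM in the controls and 12.1 and 29.8 CPM in dCKO tissue.

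Treml1, which encodes TLT-1, an immune-type receptor of alpha granules that appears on activated platelets, had 0, 6 and 3 reads in the controls and 32 and 96 in dCKO tissue. The levels were 0, 0.812 and 0.458 CPM against 2.96 and 7.35 CPM. Control replicate 1, with its count of 0, was the lowest of the controls as measured, and 3 counts there would be 0.394 CPM. The 95% Poisson intervals of the 3 control counts (counting error only), 0 to 3.69, 2.20 to 13.1 and 0.619 to 8.77 reads, overlapped. Treml1 rose with 3.59 on the log2 scale (edgeR adjusted p = 0.00102, SE 0.64). The value was 2.99 without control replicate 1 and 4.53 without control replicate 2 (edgeR adjusted p = 0.00771 and 3.16e-05). Leaving out dCKO replicate 2 gave 2.78, and the call was lost (edgeR adjusted p = 0.0985).

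**Figure D2:**
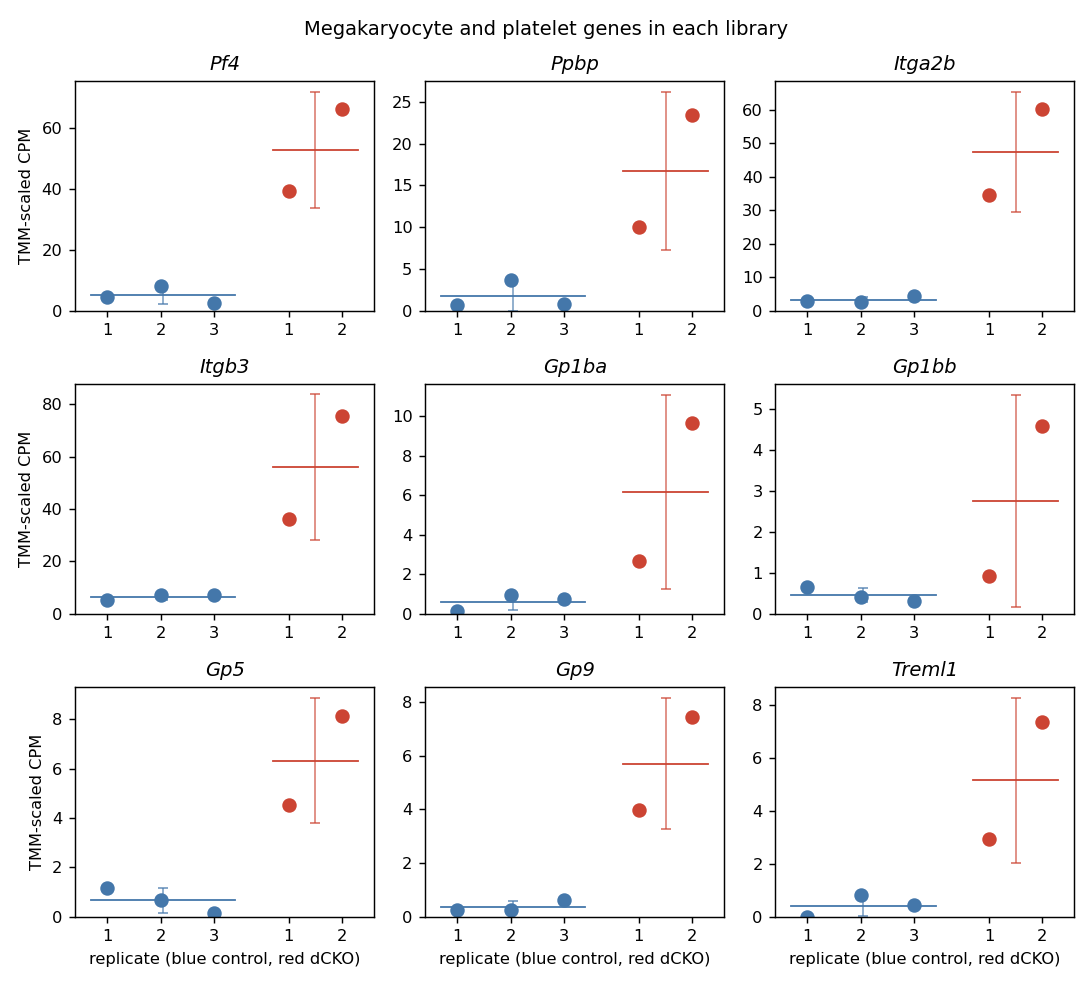
TMM-scaled CPM of each of the 9 genes in the 3 control (blue) and 2 dCKO (red) libraries, with group means as lines and SDs as bars, cut at 0. All 9 genes were higher in both dCKO libraries than in any control, and dCKO replicate 2 was the higher of the pair for each.

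In all, 8 of the 9 genes entered the test and 8 were called higher (edgeR adjusted p below 0.05), where 5.0% of all 12710 genes tested were called higher and 1.42% lower. Only Pf4, Itga2b and Itgb3 had enough control reads to enter on the controls alone. Ppbp, Gp1ba, Gp5, Gp9 and Treml1 entered through the dCKO libraries, so their share of calls says little by itself. All 9 were also chosen with earlier results of these data known, so no share of calls among them serves as a test. Without the filter all 9 were tested and 9 were called higher, against 4.57% of 18611 genes. In all 9 both dCKO libraries stood above every control, as they did in 19.0% of the genes tested. Summed, the 9 genes took 116, 183 and 110 reads in the controls and 1467 and 3433 in dCKO tissue, or 15.2, 24.8 and 16.8 CPM against 135.6 and 262.9 CPM. The ratio of the group means was 10.5 (exact two-sided permutation p = 0.1, the smallest possible here), and 7.16 without dCKO replicate 2. In whole tissue, more cells of a type and more RNA per cell cannot be told apart.

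The authors' deposited table gave fold changes of 4.84 for Gp1bb to 14.5 for Itga2b. By the adjusted p of the authors' deposited table, Pf4, Ppbp, Itga2b, Itgb3, Gp5 and Gp9 were below 0.05, Ppbp narrowly at 0.0480, while Treml1 (0.0759), Gp1ba (0.353) and Gp1bb (0.688) were not.

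Levels of different genes were compared per kilobase of exon, with lengths from GENCODE M21. On the scale of CPM per kilobase, Pf4 led in both groups, with means of 6.95 in the controls and 73.5 in dCKO tissue. Ppbp followed in dCKO tissue at 15.5. The integrin chains lay close together there, Itgb3 at 9.49 and Itga2b at 8.69, within the spread between the 2 libraries. Within the GPIb-IX-V complex the dCKO means per kilobase were 6.47 for Gp9, 2.88 for Gp5, 2.27 for Gp1ba and 1.32 for Gp1bb. The neighbours Gp5 and Gp1ba overlapped between libraries, at 2.06 and 3.70 against 0.986 and 3.55. In dCKO tissue Treml1 lay between Gp9 and Gp5 at 3.68.

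**Figure D3:**
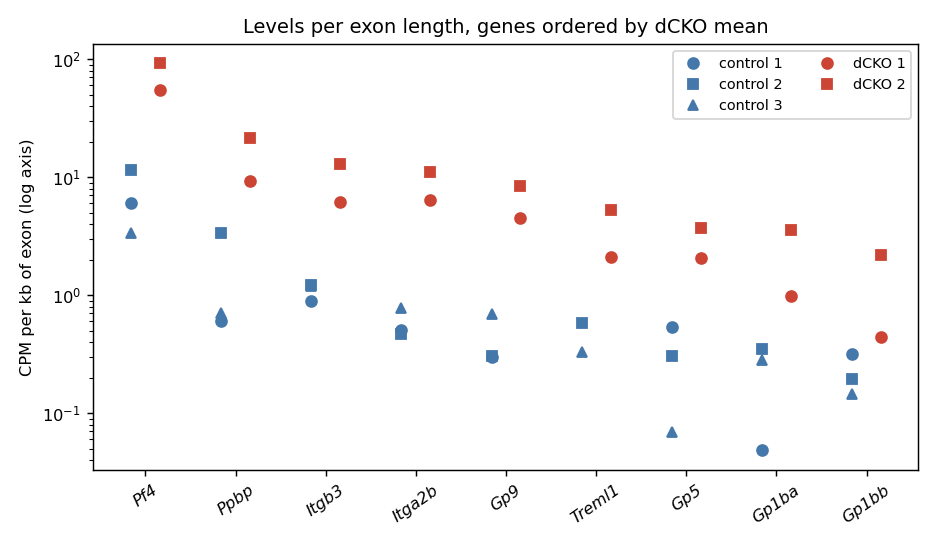
Levels of the 9 genes as CPM per kilobase of exon on a log axis, in each control (blue) and dCKO (red) library, ordered by the dCKO mean. Pf4 reached 54.7 and 92.2 in the dCKO libraries, the highest of the 9, and the 0 of Treml1 in control replicate 1 is not drawn.

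Genes with a part in megakaryocytes or platelets beyond the 9 were read from 7 lists. Many are not restricted to that lineage, and the cytoskeleton list alone summed to 2963 to 3141 CPM in the controls. Their calls are therefore no readout of the lineage alone, and the lists were chosen with earlier results of these data known. The lists hold 116 genes of the count table, 102 of them tested. Of these 102, 44 were called higher and 2 lower in dCKO tissue (edgeR adjusted p below 0.05). Of all 12710 genes tested, 5.0% were called higher and 1.42% lower, the background for each list below. The median log2 fold change of the 102 was 0.65, where the median of all genes tested was 0.00. Of the 44, 25 changed at least 4-fold. Several of the 44 had too few control reads to enter the test on the controls alone. Of the genes named here these were F2rl2, P2rx1, P2ry1, Lcp2, Gfi1b, Slc35d3, Tbxas1 and Was, and the 44 held others. Such genes entered through the dCKO libraries, so their share of calls in each list says little by itself. Without dCKO replicate 2 only 20 of the 44 kept their call, and 34 of the 44 did without dCKO replicate 1 or without control replicate 1.

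Of 15 megakaryocyte transcription factor genes, 10 rose and 2 fell (median log2 fold change 1.26). Nfe2, a factor needed for platelet release, measured 2.23, 1.35 and 0.917 CPM in the controls and 42.1 and 40.2 CPM in dCKO tissue, a rise of 4.74 on the log2 scale (edgeR adjusted p = 8.85e-11, SE 0.25). Gata1 rose by 4.25, Tal1 by 3.49 and Zfpm1, the FOG1 cofactor of GATA1, by 2.23 on the log2 scale. These 4 factors also act in red cells. The lower members were Fli1, an ETS factor of megakaryocytes that endothelium and neural crest also express, and Cbfb, the partner of RUNX1. Fli1 measured 75.2, 87.4 and 87.7 CPM in the controls and 51.2 and 67.5 CPM in dCKO tissue (log2 fold change −0.49, edgeR adjusted p = 0.0412). Neither its call nor that of Cbfb held without control replicate 1, control replicate 2 or dCKO replicate 1. The calls of Fli1 and Cbfb did not both hold without dCKO replicate 2.

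Among 13 platelet receptor genes tested, 5 rose and 0 fell (median 0.83). F2rl2, the thrombin receptor PAR3 of mouse platelets, rose by 4.30 and P2rx1, an ATP-gated channel, by 3.76 on the log2 scale, from control means of 0.387 and 0.401 CPM. Both passed the filter on low counts through the dCKO libraries alone. F2rl2 stood at 5.16 without control replicate 3. P2ry1, an ADP receptor, rose by 2.22. With dCKO replicate 2 left out, P2ry1 lost its call, at 1.76 (edgeR adjusted p = 0.162).

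Of 22 genes of signalling to the platelet integrin, 9 rose and 0 fell (median 0.83). Fermt3, which encodes kindlin-3 and switches on integrins in blood cells, measured 3.94, 5.55 and 4.58 CPM in the controls and 23.4 and 45.5 CPM in dCKO tissue, a rise of 2.88 on the log2 scale (edgeR adjusted p = 2.03e-07, SE 0.26). Rasgrp2, an activator of RAP1, rose by 1.87, Lcp2, the adaptor SLP-76, by 2.10 and the kinase gene Syk by 1.39. When dCKO replicate 2 was left out, the last 3 lost their calls, at 1.56, 1.54 and 1.05 (edgeR adjusted p = 0.0584, 0.228 and 0.0595). Fermt3, Lcp2 and Syk also act in other blood cells.

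Granule genes were split. Of 15 tested cargo genes, 8 rose and 0 fell (median 0.86). Vwf, the von Willebrand factor gene, which endothelium also expresses, measured 4.07, 4.06 and 3.36 CPM in the controls and 11.8 and 21.5 CPM in dCKO tissue, a rise of 2.12 on the log2 scale (edgeR adjusted p = 3.66e-05, SE 0.28). Tgfb1 rose by 1.39, Thbs1 by 1.30 and Clu by 1.20. In the absence of dCKO replicate 2, Thbs1 stood at 0.67 and Clu at 0.90 with no call (edgeR adjusted p = 0.106 and 0.167), Thbs1 had no call by DESeq2 (adjusted p = 0.0834) and Clu none without control replicate 1 (edgeR adjusted p = 0.0563). Of 20 genes of granule formation, 5 rose and 0 fell (median 0.31). Unc13d, which docks granules, rose by 2.68, and Nbeal2, the gene of grey platelet syndrome, by 2.09, with no call for Nbeal2 without dCKO replicate 2 (1.63, edgeR adjusted p = 0.0695). Gfi1b, a repressor also needed by red cells, rose by 4.40, and by 5.25 without control replicate 2. Slc35d3, a gene of platelet dense granules, had 1, 1 and 0 reads in the controls and 23 and 60 in dCKO tissue.

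Of 4 tested eicosanoid genes, 3 rose. Alox12, the platelet 12-lipoxygenase, measured 1.05, 3.25 and 1.83 CPM in the controls and 8.13 and 21.1 CPM in dCKO tissue (log2 fold change 2.84, edgeR adjusted p = 9.23e-05, SE 0.41, and 1.99 without dCKO replicate 2). Ptgs1, the cyclooxygenase of platelets, rose by 2.14 and Tbxas1, thromboxane synthase, by 3.37, the latter with no call without dCKO replicate 2 (2.68, edgeR adjusted p = 0.182). Pla2g4a was not called, at 27.2 ± 6.71 CPM (SD, n = 3) against 22.4 ± 2.83 CPM (SD, n = 2) in the dCKO group. Of 14 cytoskeletal genes, 5 rose and 0 fell (median 0.32). Tubb1, the beta-tubulin of the platelet marginal band, rose by 2.84, Plek, the protein kinase C substrate pleckstrin, by 2.98 and Myl9 by 1.30. Lacking dCKO replicate 2, Tubb1 stood at 2.06 and Plek at 2.12, both still called (edgeR adjusted p = 0.0043 and 6.96e-04). Was rose by 2.04 and lost its call without control replicate 1 or either dCKO library (edgeR adjusted p up to 0.26).

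**Figure D4:**
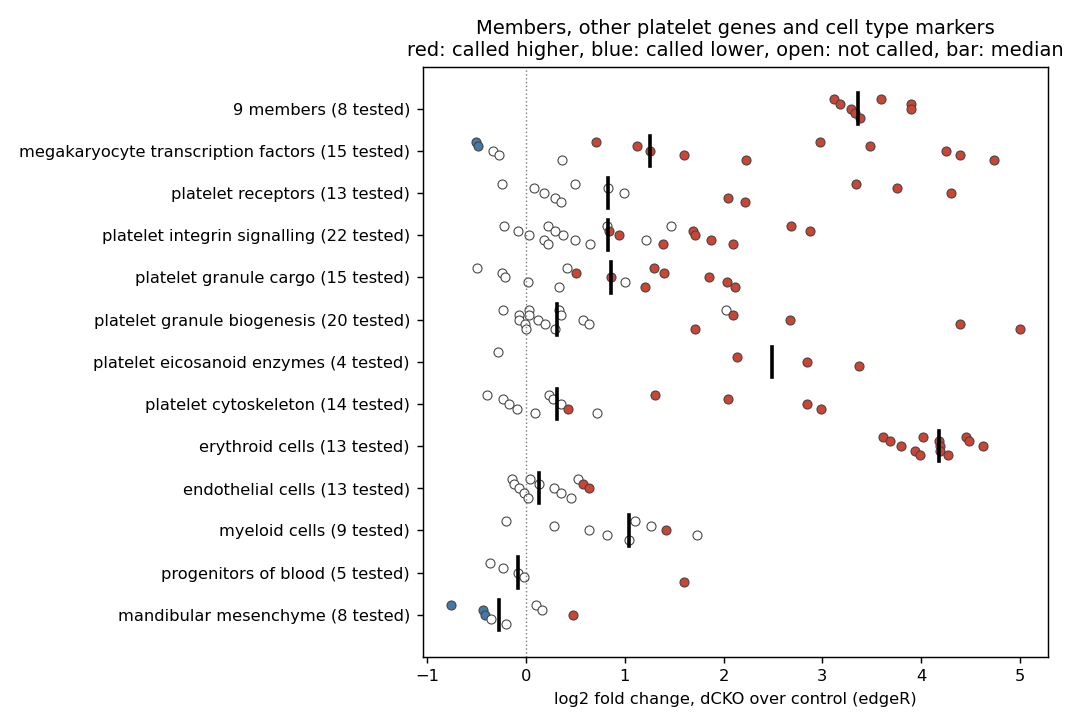
Log2 fold changes of dCKO over control for the tested genes of each list, with called genes filled, genes not called open and the list median as a bar. The 8 tested members lie between 3.12 and 3.90, and the erythroid genes between 3.61 and 4.63.

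Over the 5 libraries, the profile of log2 CPM closest to the mean profile of the 8 tested members, by root-mean-square distance, was that of Slc14a1 (0.246). Fermt3 (0.271), Dusp8 (0.305) and Plek (0.312) were also among the 5 closest. The members themselves lay 0.213 (Itgb3) to 0.725 (Gp5) from their mean. Slc14a1, a urea transporter gene known from red cells and kidney, had 2, 4 and 1 reads in the controls and 39 and 108 in dCKO tissue. Dusp8, a phosphatase gene, had 1, 5 and 2 reads against 32 and 59. Both were chosen for their profile, so their higher level in dCKO tissue is a description, and both passed the filter on low counts through the dCKO libraries alone.

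Markers of other cells that the tissue could hold were read beside the 9 genes. Only in the erythroid list was every tested marker called higher. Of all genes tested, 5.0% were called higher and 1.42% lower. All 13 erythroid markers rose, by 3.61 to 4.63 on the log2 scale (median 4.18), and their summed level ran from 3435 to 4446 CPM in the controls and was 80334 and 56096 CPM in dCKO replicates 1 and 2. Of 9 tested myeloid markers 1 rose, Laptm5 (log2 fold change 1.42, edgeR adjusted p = 7.66e-04, SE 0.25). The median log2 fold change of the tested myeloid markers was 1.04. The myeloid sum was 21.0 to 25.3 CPM in the controls and 30.9 and 59.1 CPM, above every control, in dCKO tissue. Of 13 endothelial markers, Cldn5 and Egfl7 rose, with log2 fold changes of 0.64 and 0.57. Leaving out single libraries removed the call of Cldn5 in 3 of 5 cases and that of Egfl7 in 4 of 5, and scaling by total counts alone removed both (edgeR adjusted p = 0.0641 and 0.0648). The endothelial sum was 371.2 to 393.4 CPM against 400.2 and 461.1 CPM. Of 5 tested markers of blood progenitors, Runx1 rose by 1.60 (edgeR adjusted p = 0.00462, and 0.0529 and 0.0722 without dCKO replicate 1 or 2). The other tested progenitor markers Kit, Cd34, Myb and Mecom were not called, and Ly6a and Flt3 had 0 reads in dCKO tissue and 2 reads each over the controls, too few to compare. The part of these cells in the levels of the 9 genes was not tested.

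Relative to red cell transcripts, the 9 genes lay within or below the control range in dCKO tissue. Per 1000 reads of the embryonic globins Hba-x, Hbb-bh1 and Hbb-y, the 9 genes together took 3.53, 7.16 and 5.07 reads in the controls and 1.74 and 4.87 in dCKO replicates 1 and 2. The groups overlapped, with means of 5.25 ± 1.82 (SD, n = 3) and 3.31 ± 2.21 (SD, n = 2) and an exact two-sided permutation p of 0.4. The ratio of the means was 0.629, and 0.331 without dCKO replicate 2. The value does not depend on how library sizes are scaled. With so few libraries, a p above the threshold does not show that the proportions were alike.

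The 2 dCKO libraries differed from each other in opposite directions for the 9 members and for the embryonic globins. Each of the 9 members was higher in dCKO replicate 2, by 1.68-fold for Pf4 (95% interval 1.50 to 1.90), 1.74-fold for Itga2b (1.53 to 1.97) and 2.08-fold for Itgb3 (1.85 to 2.35). Gp1ba differed by 3.60-fold (2.39 to 5.59) and Gp1bb by 4.97-fold (2.53 to 10.9), their intervals above that of Pf4. The intervals are exact binomial and cover counting error only. Hba-x, Hbb-bh1 and Hbb-y were lower in dCKO replicate 2, at 0.731, 0.746 and 0.588 times their level in dCKO replicate 1, and Gata1 at 0.760 times (0.685 to 0.842). Among all genes tested, 49.5% were higher in dCKO replicate 2.

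**Figure D5:**
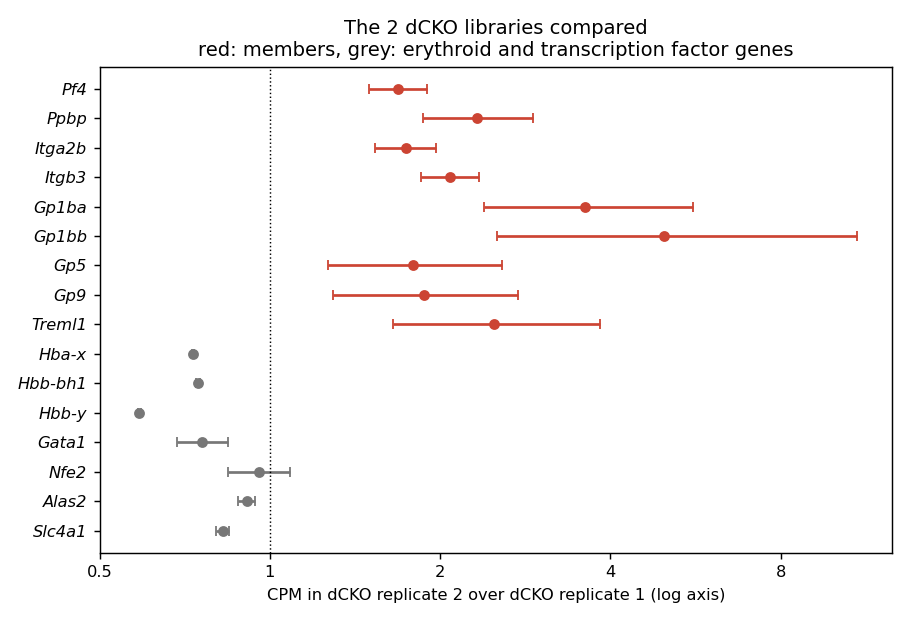
CPM in dCKO replicate 2 over dCKO replicate 1 on a log axis, with 95% exact binomial intervals of the read counts, for the 9 members (red) and 7 erythroid and transcription factor genes (grey). Every member lies above 1, from 1.68 to 4.97, while the globins, Gata1, Alas2 and Slc4a1 lie below 1 and the interval of Nfe2 includes 1.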

How the data were processed

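The authors deposited raw read counts per gene symbol. HTSeq 0.5.4p3, DESeq 1.16.0 and mm9 were used per the submitters' processing notes. The sources used here name no aligner, annotation, counting mode or use of strand. The authors also deposited their own comparison, with mean normalized counts (a signal), fold changes as a ratio, log2 fold changes, and p-values with adjusted p-values. Columns headed WT were matched to controls by replicate number.

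The fit used edgeR 4.0.16 in R 4.3.3. filterByExpr at its defaults (minimum count 10, total 15) left 12710 of 23441 genes, which for the members means at least 1.34 CPM in 2 libraries. TMM scaling and the two-sided quasi-likelihood F test followed, with Benjamini-Hochberg adjustment over all genes tested and a threshold of 0.05. Each standard error was derived from F, as |log2 fold change| divided by its root. CPM profiles used a prior count of 2. The fit was tested on simulated data. Limma 3.58.1 (limma-voom) and DESeq2 1.42.0 served as alternatives, beside other scalings, filters, a replicate block and each library left out. With 1 dCKO library left, its variation was assumed equal to that of the controls. Replicate pairs differed beyond sampling noise (3.70 to 10.9 chi-square units per gene).

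The members and lists were chosen with earlier results of these data known. The genes named are the 9 members, Yap1 and Wwtr1, in each list up to 4 genes by smallest p, and the 5 nearest profiles averaging at least 1 CPM. Fli1, Cbfb, Kit, Ly6a, Flt3 and mesenchyme markers outside this rule were named after their values were seen. One gene that the rule names is not reported here. Promoter sequences are from RefSeq on GRCm38.p6, and exon lengths from GENCODE M21 (GRCm38), another build than mm9.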

Additional observations from a re-analysis of the deposited data

How the results depend on the processing

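The 8 calls among the members held under all 3 other scalings, both other filters, DESeq2, limma-voom, the replicate block and without any control library or dCKO replicate 1. Without dCKO replicate 2, 6 held, Gp1ba and Treml1 being lost. With the replicate block, 6 of the other platelet genes and 5 of the other cell type markers were called lower, against 2 and 3. The labels do not say that libraries with the same replicate number are paired. Correlations of their deviations were 0.084 and −0.004 for replicates 1 and 2. The deviations of 2 dCKO libraries mirror each other, so these values cannot decide on pairing, nor show the block to be a better guide. The block removed none of the 8 calls. With single libraries left out, the other platelet genes called higher ranged from 20 to 46 and those called lower from 0 to 3, and the cell type markers called lower from 1 to 5. Myb, which was not called, moved from −0.08 to 0.10 with the block, and from −0.17 to 0.095 over single libraries left out. Over all genes, total counts without TMM gave 531 higher and 472 lower calls, no filter gave 851 and 305, and the block 1200 and 921, against 636 and 180. Without single libraries there were 403 to 950 higher and 39 to 687 lower. The cause of these changes was not tested. No member was called lower in any setting, and at an unadjusted p below 0.05 all 8 tested were higher. Of all 12710 genes tested, 2738 had an unadjusted p below 0.05, in either direction. Control counts of 0 to 9 for Gp1ba, Gp1bb, Gp5, Gp9 and Treml1 limit the precision of their folds. The groups of 3 and 2 libraries are too small to search for outlying libraries.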

Other observations

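The 2 dCKO libraries differed from each other to a different extent in each list, with 49.5% of all genes tested higher in dCKO replicate 2 as the background. Of the platelet lists, all 13 receptor genes tested were higher there, as were 20 of 22 genes of integrin signalling, 12 of 15 granule cargo genes, 11 of 14 cytoskeletal genes and all 4 eicosanoid genes. Genes of granule formation were even, at 10 of 20 (median ratio 1.02), and of the megakaryocyte transcription factor genes 5 of 15 were higher. Among markers of other cells the counts were 9 of 9 myeloid (median ratio 1.84), 10 of 13 endothelial, 6 of 8 mesenchyme, 4 of 5 blood progenitor and 3 of 13 erythroid genes. These are ratios between 2 libraries of 1 group, with no replicate check.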
